A study of Homo sapiens with 6 samples.

Results

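Box H/ACA small nucleolar RNAs (snoRNAs) are short noncoding RNAs of the nucleolus, and 61 of them were measured by single-symbol probe sets among 18372 genes. They were chosen by name, as every symbol that begins with SNORA and a digit, and by mean signal, since the brightest probe set over all 6 arrays stood for a symbol with more than 1. The mean signal was thus the only measured value used, but the class was picked with results of the same comparison known, so the counts below describe it and support nothing further. A375, an established human melanoma cell line, had been transfected for 72 h with siRNA against FAH (siFAH, 3 arrays) or with negative control siRNA (3 arrays). FAH encodes fumarylacetoacetate hydrolase, the last enzyme of tyrosine breakdown, and the profiling asked which transcripts change when it is silenced. Labeled cDNA from total RNA was read on Affymetrix Human Gene 1.0 ST arrays, 1 sample per array, with values in log2 signal. The labels do not say which siRNA, or whether a pool, made up siFAH. The knockdown was transient and was profiled in 1 cell line, so an effect of the siRNA itself and an effect of lower FAH cannot be told apart. In bulk RNA, fewer cells carrying a transcript and less of it per cell cannot be told apart either.

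A box H/ACA snoRNA folds into a pair of hairpins, followed by the H box at the hinge and the ACA box near the end that name the class. It pairs with a target RNA and directs dyskerin (DKC1), held with NOP10, NHP2 and GAR1, to turn a chosen uridine of ribosomal RNA into pseudouridine, and a few members act instead in cleaving the ribosomal precursor. In human cells most are cut from introns of host genes, many of which encode ribosomal proteins or factors of translation, so that a snoRNA and its host start as 1 transcript. The 61 measured here are annotated at 123 to 236 nucleotides (median 134).

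Of the 61 snoRNAs, 52 lie inside exactly 1 protein-coding or long noncoding RefSeq gene, 8 lie where several such genes overlap, and SNORA7B lies in none. The 52 fall in 44 host genes. Of 6 measured hosts that contain several measured snoRNAs, the starts of the 5 with a listed promoter are shown, because a pyrimidine run at the start site is a known mark of ribosomal protein genes and of many snoRNA hosts. Each line gives 70 bases before and 20 bases after the annotated start in RefSeq on GRCh38.p14, read on the strand of the gene, with the longest run of C or T that lies within 20 bases of the start in capitals.
RPL27A: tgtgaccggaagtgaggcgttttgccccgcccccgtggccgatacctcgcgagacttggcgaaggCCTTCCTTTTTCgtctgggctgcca
KANSL2: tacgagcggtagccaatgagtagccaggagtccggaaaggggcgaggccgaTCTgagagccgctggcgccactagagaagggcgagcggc
TCP1: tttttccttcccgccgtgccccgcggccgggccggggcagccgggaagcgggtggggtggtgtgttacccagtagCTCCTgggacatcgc
TBRG4: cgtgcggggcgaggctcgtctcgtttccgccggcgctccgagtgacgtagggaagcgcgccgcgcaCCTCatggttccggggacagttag
SNHG17: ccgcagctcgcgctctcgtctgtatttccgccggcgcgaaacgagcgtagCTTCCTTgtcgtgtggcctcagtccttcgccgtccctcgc
RPL27A, a protein of the large ribosomal subunit, is at chr11:8682722-8682811 on the plus strand and carries a run of 12 pyrimidines. TCP1, a chaperonin subunit, is at chr6:159789583-159789672 on the minus strand with a run of 5. TBRG4, a regulator of mitochondrial RNA, is at chr7:45111678-45111767 on the minus strand with a run of 4, and SNHG17, a long noncoding snoRNA host, is at chr20:38435309-38435398 on the minus strand with a run of 7. KANSL2, a subunit of a histone acetyltransferase complex, is at chr12:48682219-48682308 on the minus strand with a run of 3. A run of at least 8 pyrimidines stood in this window in 13 of the 37 host genes with a listed promoter (35.1%), including 6 of 7 ribosomal protein hosts, against 17.3% of all 27305 listed promoters. Read on the opposite strand, the figures were 3 of 37 hosts and 14.7% of all promoters.

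FAH was lower on every siFAH array than on every control array, with log2 signals of 4.92, 4.60 and 4.92 against 5.48, 5.59 and 5.68 (log2 fold change -0.77, SE 0.10, adjusted p = 0.00213 by limma). A gene is called below where limma's p, adjusted over the 18372 genes by the method of Benjamini and Hochberg, is under 0.05. By that measure 639 genes rose (3.48%) and 1172 fell (6.38%). Of these calls 35.3% were higher, against 46.3% after quantile normalization and 49.5% after cyclic loess. Arrays of 1 group correlated at 0.995 to 0.997 over genes, and arrays of different groups at 0.987 to 0.995. Of the melanocyte markers, SOX10, S100B, MITF and S100A1 averaged 8.46, 7.29, 6.58 and 5.54. MLANA, PMEL and TYR averaged 3.03, 3.88 and 2.93, in the dim range, and DCT was not measured by a single-symbol probe set. The 10 markers of keratinocytes, leukocytes, endothelium and fibroblasts averaged 2.41 to 5.51, and none of the 17 markers measured was called.

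In siFAH cells 40 of the 61 box H/ACA snoRNAs rose, 1 fell and 20 were not called. The share called higher was 65.6%, beside 3.48% of all genes, and the share called lower was 1 of 61 beside 6.38%. Their median log2 fold change was 0.52, with the middle part of the class between 0.30 and 0.71 (quartiles), against a median of 0.0050 over all genes. The called increases lay between 0.30 and 1.08 on the log2 scale, and 26 of them were at least 1.5-fold, a limit that 0.697% of all genes passed upward with a call. For 44 members the lowest siFAH array was above the highest control array, which held for 13.4% of all genes, and for 1 member the reverse was true, which held for 18.6%. The arrays of the other 16 members overlapped. The sign of the change was positive for 55 of 61, and another scaling of the arrays turned it only for SNORA80B, whose log2 fold change was 0.00076 as deposited.

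**Figure D1:**
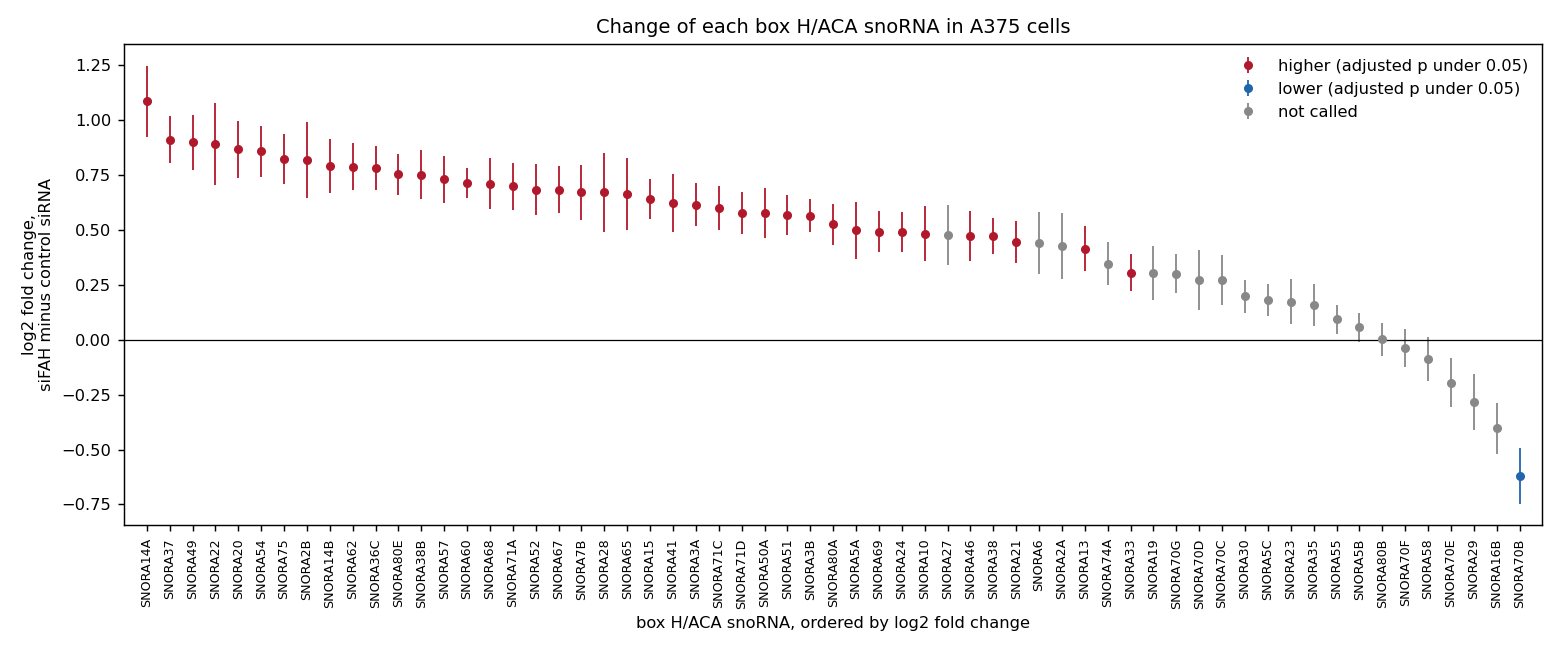
Log2 fold change (siFAH minus control siRNA) of each of the 61 box H/ACA snoRNAs, ordered by size, with bars for the standard error from limma (n = 3 arrays per group). Red points are the 40 called higher, the blue point is SNORA70B, called lower, and grey points are the 20 not called.

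The largest change was that of SNORA14A, a guide for small-subunit ribosomal RNA that lies in POR, the gene of cytochrome P450 reductase. It had 6.91, 7.63 and 7.57 log2 signal on siFAH arrays 1, 2 and 3, and 6.39, 6.31 and 6.15 on control arrays 1, 2 and 3. All siFAH arrays were above all control arrays, with the first siFAH array nearest to them, and the log2 fold change was 1.08 (SE 0.16, 2.12-fold, adjusted p = 0.00404). SNORA14B, its paralog on chromosome 1, had 7.45, 7.96 and 7.88 in siFAH cells and 7.05, 7.03 and 6.84 in control cells. The groups were again apart, by 0.79 (SE 0.12, adjusted p = 0.00511). Probes of such close copies may read each other's RNA, so the split between paralogs is uncertain here and below.

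SNORA37, a guide for large-subunit ribosomal RNA in MBD2, the gene of a methyl-CpG binding protein, had 7.75, 8.13 and 8.08 in siFAH cells and 7.18, 7.10 and 6.94 in control cells. Its lowest siFAH array exceeded its highest control array, and the log2 fold change was 0.91 (SE 0.11, adjusted p = 0.00149). SNORA49, which lies in the chromatin remodeler gene EP400, had 8.25, 8.70 and 8.55 in siFAH cells against 7.79, 7.61 and 7.40 in control cells. No array crossed, and the log2 fold change was 0.90 (SE 0.12, adjusted p = 0.00282). SNORA20, a small-subunit guide in TCP1, had 8.96, 9.52 and 9.34 in siFAH cells against 8.55, 8.40 and 8.27 in control cells. Here too the arrays separated by group, and the log2 fold change was 0.87 (SE 0.13, adjusted p = 0.00415).

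SNORA54, a large-subunit guide in the nucleosome assembly gene NAP1L4, had 6.33, 6.87 and 6.65 in siFAH cells and 5.77, 5.82 and 5.70 in control cells. The control arrays were close together and all below the siFAH arrays (log2 fold change 0.86, SE 0.12, adjusted p = 0.00278). SNORA75, in the gene of nucleolin (NCL), had 7.16, 7.60 and 7.53 in siFAH cells and 6.66, 6.69 and 6.47 in control cells. It rose by 0.82 with no overlap (SE 0.11, adjusted p = 0.00284). SNORA62, in the ribosomal protein gene RPSA, had 9.13, 9.59 and 9.54 in siFAH cells and 8.63, 8.65 and 8.62 in control cells. Its 3 control arrays were nearly equal (SD 0.017), and the increase was 0.79 (SE 0.11, adjusted p = 0.00285).

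SNORA36C, in the kinase gene AAK1, was dim, with 4.59, 4.72 and 4.81 in siFAH cells and 4.09, 3.95 and 3.73 in control cells. It nevertheless separated the groups, with a log2 fold change of 0.78 (SE 0.099, adjusted p = 0.00209). SNORA80E, known also as SNORA42 and as an RNA raised in lung cancer, guides small-subunit modification and lies in KHDC4, the gene of a splicing factor. It had 7.08, 7.35 and 7.38 in siFAH cells and 6.55, 6.59 and 6.41 in control cells, which did not overlap (0.75, SE 0.093, adjusted p = 0.00193). The smallest adjusted p of the class belonged to SNORA60, in SNHG11, with 6.34, 6.23 and 6.29 in siFAH cells and 5.63, 5.55 and 5.54 in control cells. Its replicates were closer together than those of most members, and the log2 fold change was 0.71 (SE 0.067, adjusted p = 0.000702). SNORA60 is named for that p, after its values were seen. A probe set outside the members that names both SNORA60 and SNHG11 overlapped between groups. It had 5.96, 5.91 and 5.94 in siFAH cells and 5.99, 6.02 and 5.94 in control cells, a difference of -0.045 with no test.

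Among the 12 largest changes, those of SNORA22 and SNORA2B lost their call when single arrays were left out. SNORA22, a large-subunit guide in the long noncoding gene LINC03006, had 10.26, 10.76 and 10.86 in siFAH cells and 10.17, 9.52 and 9.51 in control cells. The first siFAH array and the first control array nearly met, and the log2 fold change of 0.89 (SE 0.19, adjusted p = 0.0173) lost its call without siFAH replicate 2 or 3 or control replicate 2 or 3 (adjusted p 0.0617, 0.068, 0.0665 and 0.0833). SNORA2B, in KANSL2, had 5.17, 5.58 and 5.997 in siFAH cells and 4.90, 4.82 and 4.57 in control cells. The siFAH arrays spread widely but stayed above the control arrays, and the log2 fold change of 0.82 (SE 0.17, adjusted p = 0.0170) lost its call without siFAH replicate 2 (adjusted p = 0.0518) or control replicate 3 (adjusted p = 0.0816).

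**Figure D2:**
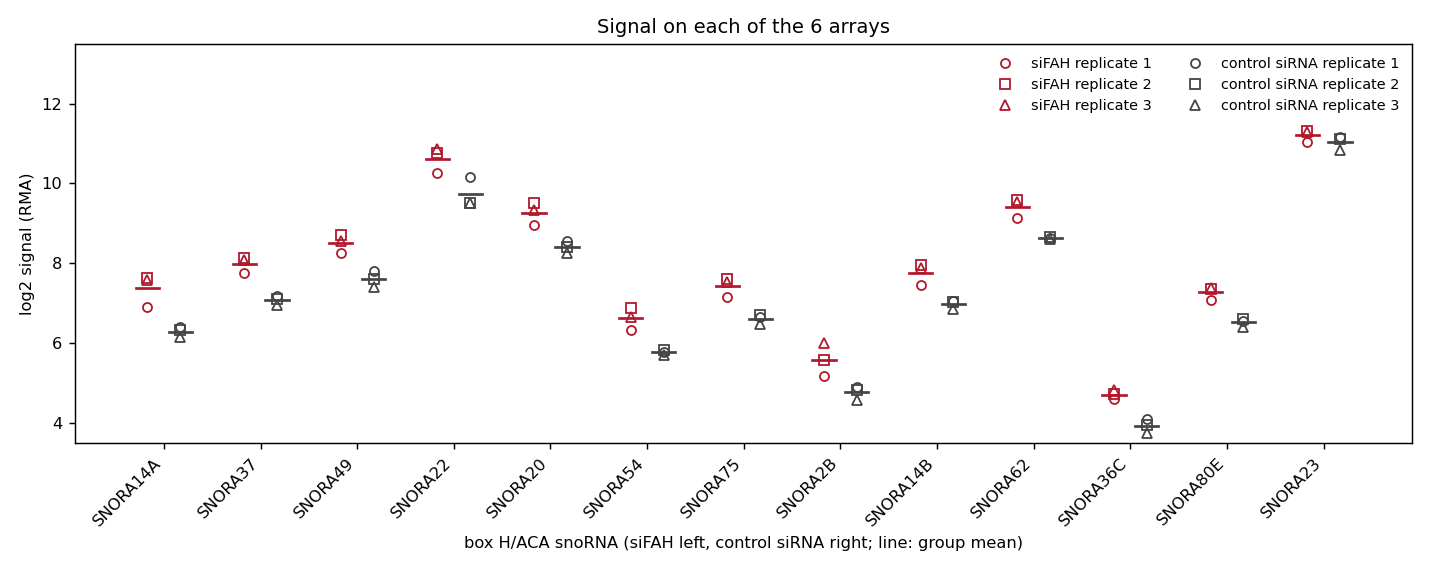
Log2 signal on each of the 6 arrays for the 12 called snoRNAs with the largest changes and, at the right, for SNORA23, with siFAH arrays in red to the left of control siRNA arrays in grey and a line at each group mean. The groups are apart for all 12 and overlap for SNORA23, and siFAH replicate 1 (circle) is the lowest siFAH array in every column.

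With single arrays left out one at a time, 26 of the 40 increases kept their call in all 6 fits and 14 lost it in at least 1. The 14 were SNORA2B, SNORA5A, SNORA7B, SNORA10, SNORA13, SNORA21, SNORA22, SNORA28, SNORA33, SNORA41, SNORA46, SNORA50A, SNORA65 and SNORA69, with a highest adjusted p between 0.0510 and 0.161. The count of called increases was 45, 28 and 30 without siFAH replicate 1, 2 and 3. It was 39, 29 and 29 without control replicate 1, 2 and 3. Over all genes the counts of increases also moved, against 639 on all arrays. They were 573, 271 and 267 without siFAH replicate 1, 2 and 3, and 653, 267 and 289 without control replicate 1, 2 and 3. SNORA28, in the translation factor gene EIF5, was the only called increase whose arrays overlapped, with 4.74, 5.30 and 5.18 in siFAH cells and 4.81, 4.30 and 4.09 in control cells. Its first siFAH array was below its first control array (log2 fold change 0.67, adjusted p = 0.0422). Nearest to the threshold were SNORA33, called at an adjusted p of 0.0476, and SNORA74A and SNORA27, not called at 0.0518 and 0.0522.

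A single member fell. SNORA70B, a copy of the small-subunit guide SNORA70 within USP34, had 4.89, 4.41 and 4.70 in siFAH cells and 5.28, 5.10 and 5.48 in control cells. Every siFAH array was below every control array, and the log2 fold change was -0.62 (SE 0.13, adjusted p = 0.0152), which lost its call without control replicate 3 (adjusted p = 0.0660). SNORA16B, in PPP2R5A, had 3.56, 3.78 and 3.48 in siFAH cells and 4.19, 3.76 and 4.09 in control cells. Those arrays overlapped, and its log2 fold change of -0.40 was not called (SE 0.12, adjusted p = 0.0529). SNORA29, in TCP1, had 4.04, 4.41 and 4.08 in siFAH cells and 4.75, 4.32 and 4.33 in control cells, and SNORA70E, in RAB30, had 3.68, 4.13 and 4.04 in siFAH cells and 4.11, 4.27 and 4.05 in control cells. Both overlapped between groups and were not called (log2 fold changes -0.28 and -0.20, adjusted p 0.194 and 0.295). All 6 members with a negative sign had a mean signal under 5.

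Copies of SNORA70 are scattered over the genome, and 6 of them, SNORA70B to SNORA70G, were measured singly. All 6 had a mean signal under 5, and their changes ran in both directions. SNORA70C, SNORA70D and SNORA70G had log2 fold changes of 0.27, 0.27 and 0.30 and SNORA70F one of -0.04, none of them called (adjusted p 0.161, 0.238, 0.0573 and 0.818). The SNORA71 copies on chromosome 20, guides for small-subunit ribosomal RNA, were bright, and all 3 measured singly rose. SNORA71A had 10.57, 10.89 and 10.81 in siFAH cells and 10.22, 10.09 and 9.87 in control cells, and SNORA71A, SNORA71C and SNORA71D rose by 0.70, 0.60 and 0.58. None of the 3 overlapped between groups, but their sequences are close and their probe sets may share signal.

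The changes were next set against the signal of the probe set. Signals of different probe sets are not comparable as amounts of RNA, so the bands that follow are ranges of signal only. In the band under 5, 3 of 16 members rose and 1 fell, with a median log2 fold change of 0.18, where 1.96% of all genes in the band were called higher. Between 5 and 7, 13 of 17 rose (median 0.56) beside 3.37% of all genes. Between 7 and 9, 12 of 15 rose (median 0.67) beside 5.60% of all genes. At 9 and over, 12 of 13 rose (median 0.66) beside 13.8% of all genes. Those shares include the snoRNAs, and among genes other than snoRNAs they were 1.87%, 2.97%, 4.84% and 7.14%, from the dimmest to the brightest band. Every one of the 45 members with a mean signal of 5 or more had a positive sign, and 37 of them were called. Over the 61 members the change and the mean signal had a Pearson r of 0.51 and a Spearman rho of 0.51, a description over members that share the same 6 arrays. Over all genes the median change in the 4 bands, from dim to bright, was 0.048, -0.015, -0.099 and -0.075.

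**Figure D3:**
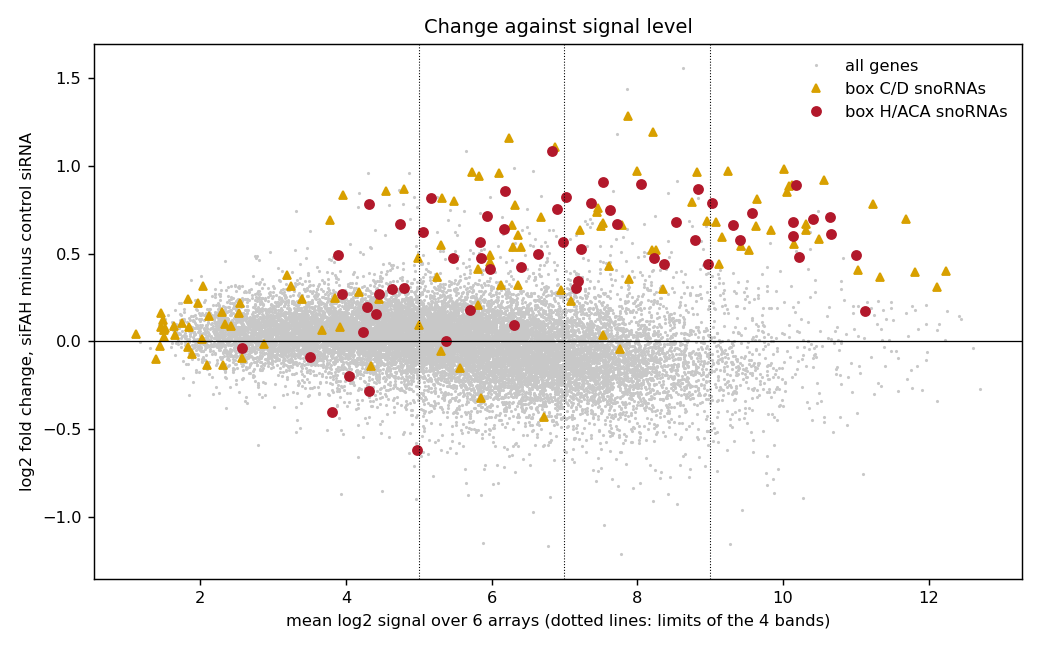
Log2 fold change (siFAH minus control siRNA) against mean log2 signal over the 6 arrays for all 18372 genes (grey), box C/D snoRNAs (yellow triangles) and box H/ACA snoRNAs (red circles), with dotted lines at the limits of the 4 signal bands. Above a mean signal of 5 all box H/ACA snoRNAs lie above 0, and below it both signs occur.

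The exception among the brightest members was SNORA23, a large-subunit guide in the importin gene IPO7. It had 11.05, 11.32 and 11.28 in siFAH cells and 11.17, 11.11 and 10.85 in control cells. The arrays overlapped, and the log2 fold change of 0.17 (SE 0.10, adjusted p = 0.315) was not called. The next in brightness, SNORA24 in SNHG8, a small-subunit guide, had 11.12, 11.35 and 11.30 in siFAH cells and 10.93, 10.71 and 10.65 in control cells. It rose by 0.49 with no overlap (SE 0.091, adjusted p = 0.0106). SNORA3A in RPL27A had 10.87, 11.05 and 10.996 in siFAH cells and 10.56, 10.33 and 10.18 in control cells, and SNORA68, a large-subunit guide, had 10.81, 11.14 and 11.05 against 10.50, 10.30 and 10.07. Neither overlapped, with log2 fold changes of 0.61 (SE 0.098, adjusted p = 0.00545) and 0.71 (SE 0.12, adjusted p = 0.00582).

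At the dim end, SNORA70F in COBLL1 had 2.64, 2.63 and 2.40 in siFAH cells and 2.59, 2.50 and 2.69 in control cells, and SNORA58 in MRPL3 had 3.33, 3.58 and 3.49 against 3.42, 3.49 and 3.75. Both were mixed between groups (log2 fold changes -0.04 and -0.09, adjusted p 0.818 and 0.620). SNORA69 in RPL39, with 3.95, 4.16 and 4.28 in siFAH cells and 3.73, 3.53 and 3.66 in control cells, was the dimmest member called. Its groups were apart by 0.49 (SE 0.093, adjusted p = 0.0115), and the call was lost without control replicate 2 (adjusted p = 0.0510).

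The replicates of the class deviated together. The median SD of a member within its groups was 0.176 (range 0.044 to 0.351 over members), against 0.0953 over all genes. siFAH replicate 1 was the lowest of its group for 49 of 61 members and for 39 of the 40 called increases. Control replicate 3 was the lowest of its group for 47 of 61 and for 36 of the 40. Relative to the mean of their group, the members had median deviations of -0.18, 0.10 and 0.07 on siFAH arrays 1, 2 and 3 and of 0.10, 0.02 and -0.13 on control arrays 1, 2 and 3. Over all genes the 6 medians lay between -0.0043 and 0.0088. The medians of the class by array were 6.91, 7.35 and 7.26 in siFAH cells and 6.45, 6.35 and 6.35 in control cells, so the lowest siFAH array was above the highest control array. Without siFAH replicate 1 the median log2 fold change of the class was 0.61, against 0.52 on all arrays. The part of what the members shared on single arrays in the change between groups was not tested.

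**Figure D4:**
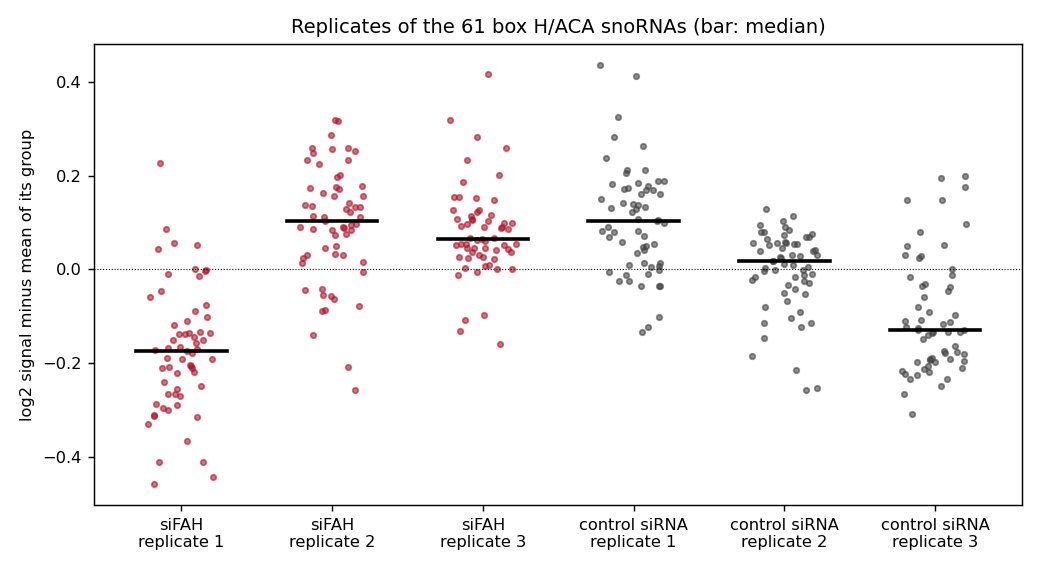
Deviation of each of the 61 box H/ACA snoRNAs from the mean of its own group (log2 signal) on each array, siFAH arrays at the left and control siRNA arrays at the right, with a bar at the median. siFAH replicate 1 and control siRNA replicate 3 sit lowest, with medians of -0.18 and -0.13.

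Other short nuclear RNAs were measured on the same arrays, where 3.48% of all genes rose and 6.38% fell. Of 115 box C/D snoRNAs, which guide ribose methylation, 61 rose and 1 fell (median log2 fold change 0.41), including 25 of 25 in the brightest band. The count of 61 was 40, 38, 39 and 35 without siFAH replicate 2, siFAH replicate 3, control replicate 2 and control replicate 3. In those fits 271, 267, 267 and 289 of all genes were called higher, against 639 on all arrays. Of 16 small Cajal body RNAs, which guide modification of spliceosomal RNAs, 13 rose (median 0.59), and of 14 spliceosomal RNAs 8 rose (median 0.63). Of 179 microRNA precursors 2 rose and 1 fell (median 0.06), although their median signal was only 3.63. For box C/D snoRNAs, siFAH replicate 1 was the lowest of its group in 86 of 115 and control replicate 3 in 62 of 115. TERC, the telomerase RNA, which carries an H/ACA domain, had 7.01, 7.10 and 7.23 in siFAH cells and 6.90, 6.56 and 6.59 in control cells. It rose by 0.43 with no overlap (SE 0.099, adjusted p = 0.0236), and the call was lost without siFAH replicate 2 or 3 or control replicate 2 or 3 (adjusted p 0.068 to 0.092).

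The host genes were compared on the same arrays. Of the 52 snoRNAs with a single containing gene, 43 had a measured host, in 36 genes. Of these 36 genes 1 rose, 4 fell and 31 were not called, beside 3.48% higher and 6.38% lower over all genes. In 13 hosts every siFAH array was below every control array and in 3 above, beside 18.6% and 13.4% of all genes. The log2 fold change was negative for 25 of the 36. Its median over the genes was -0.10 (-0.045 after quantile normalization and -0.016 after cyclic loess). The median host signal was 7.47, and all genes with a signal between 7 and 9 had a median log2 fold change of -0.099. For the 27 called increases with a measured host, the host rose in 1, fell in 3 and was not called in 23. The snoRNA changed more positively than its host in 38 of 43 pairs, by a median of 0.62, and over the 43 pairs the changes had a Pearson r of 0.21 and a Spearman rho of 0.16, as a description over pairs that share arrays and in part hosts. The host that rose was LINC03006, which contains SNORA22, with 5.19, 5.29 and 5.22 in siFAH cells and 4.68, 4.77 and 4.62 in control cells. Its groups were far apart for so dim a probe set (log2 fold change 0.54, SE 0.07, adjusted p = 0.00230), and the call held in all 6 fits without 1 array.

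The hosts that fell were SNHG17, EIF5, USP34 and IPO7, with log2 fold changes of -0.41, -0.34, -0.27 and -0.26 (adjusted p 0.0335, 0.0207, 0.0427 and 0.0457). With quantile normalization SNHG17, USP34 and IPO7, at -0.33, -0.17 and -0.18, were no longer called (adjusted p 0.0531, 0.125 and 0.106), and after cyclic loess none of the 4 was called, with EIF5 at -0.24 (adjusted p = 0.0556). SNHG17 also lost its call as the mean of its probe sets (-0.29, adjusted p = 0.0694). Leaving out 1 array lost the call of EIF5 in 3, of SNHG17 in 4, of USP34 in 5 and of IPO7 in 6 of 6 fits, with an adjusted p of up to 0.0745, 0.121, 0.146 and 0.151. SNHG17, which contains SNORA71A and SNORA71C, had 7.26, 6.97 and 6.87 in siFAH cells and 7.39, 7.38 and 7.55 in control cells. The 2 snoRNAs rose on the same arrays on which the host signal was lower. EIF5, with SNORA28, and IPO7, with SNORA23, were lower beside snoRNAs whose values were positive, while USP34 was lower beside the only snoRNA that fell, SNORA70B.

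Several hosts contain more than 1 measured snoRNA. In TCP1, SNORA20 rose by 0.87 while SNORA29 was at -0.28 and not called, beside a host with 9.39, 9.37 and 9.43 in siFAH cells and 9.57, 9.59 and 9.63 in control cells (log2 fold change -0.20, adjusted p = 0.0741). In TBRG4, SNORA5A rose by 0.50, while SNORA5B and SNORA5C were at 0.06 and 0.18 and not called, beside a host at -0.27 (adjusted p = 0.0603). The call of SNORA5A was lost without siFAH replicate 2 or 3 or control replicate 2 or 3 (highest adjusted p = 0.125). In KANSL2, SNORA2B rose by 0.82, and SNORA2A was at 0.43 and not called (adjusted p = 0.0987). In RPL27A, SNORA3A and SNORA3B rose by 0.61 and 0.56 beside a host at -0.06, and in CNOT1, a deadenylase scaffold, SNORA50A and SNORA46 rose by 0.58 and 0.47 beside a host at -0.30 (adjusted p = 0.0557). The difference between snoRNAs of a host was not tested. By kind of host, 10 of 12 members in ribosomal protein genes rose (median 0.53), as did 24 of 40 in other single hosts (median 0.51) and 6 of the 9 with several or no containing genes (median 0.58). These kinds differed in signal, with medians of 8.75, 5.84 and 7.37.

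**Figure D5:**
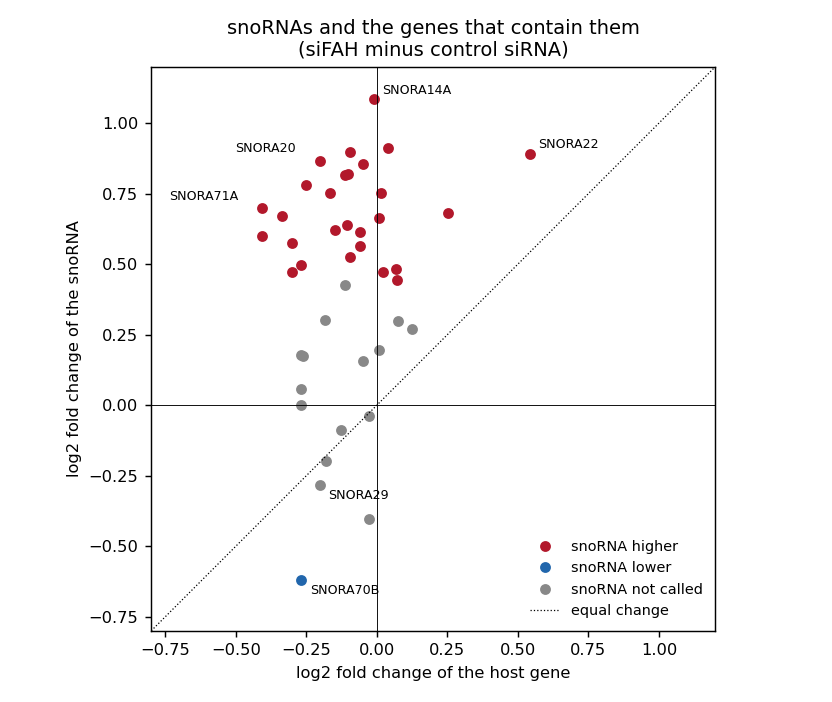
Log2 fold change (siFAH minus control siRNA) of 43 snoRNAs against that of the gene that contains them, colored by the call of the snoRNA, with a dotted line where both are equal. Most points lie above the line (38 of 43), with host values between -0.41 and 0.54.

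The proteins that act with these RNAs were listed by role. Of the 4 core proteins, NOP10, which braces the catalytic site of dyskerin, had 10.48, 10.72 and 10.71 in siFAH cells and 10.27, 10.19 and 9.87 in control cells. It rose by 0.53 with no overlap (SE 0.11, adjusted p = 0.0156), but not without siFAH replicate 2 or 3 (adjusted p 0.0597 and 0.0626). NHP2, which binds the hairpins, had a log2 fold change of 0.23 and lay just outside the threshold (adjusted p = 0.0503), with 0.34 under cyclic loess scaling (adjusted p = 0.0144) and 0.09 as the mean of its probe sets (adjusted p = 0.418), which thus disagreed. DKC1, the pseudouridine synthase itself, had 7.88, 7.92 and 7.82 in siFAH cells and 7.98, 8.04 and 8.12 in control cells. Those arrays did not overlap, but the log2 fold change of -0.17 was not called (adjusted p = 0.152), and GAR1, which aids turnover of the complex, was at 0.05 (adjusted p = 0.738).

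Of 10 factors of assembly and maturation, 2 fell, beside 6.38% of all genes, and 8 were not called. Their median log2 fold change was -0.20 with 9 of 10 negative, and -0.11 with 7 of 10 negative after cyclic loess. As deposited, all genes with a signal between 7 and 9 had a median of -0.099. The 2 were RUVBL2, an ATPase of the assembly complex, at -0.29 (adjusted p = 0.0418), and PARN, a nuclease that trims the RNA ends, at -0.28 (adjusted p = 0.0352). Quantile normalization left them at -0.19 and -0.18, not called (adjusted p 0.123 and 0.103), and each kept its call in 1 of the 6 fits without 1 array (RUVBL2 without siFAH replicate 1, PARN without control replicate 1), with an adjusted p of up to 0.151 and 0.125 in the others. The others were NAF1, SHQ1, RUVBL1, PIH1D1, NOLC1, TCOF1, TENT4B and EXOSC10, between -0.24 and 0.10. Of the 12 pseudouridine synthases that work without a guide RNA, RPUSD3 fell by 0.43 (SE 0.088, adjusted p = 0.0156; adjusted p = 0.0643 without siFAH replicate 3) and 11 were not called. Those 11 (PUS1, PUS3, PUS7, PUS7L, PUS10, PUSL1, TRUB1, TRUB2, RPUSD1, RPUSD2 and RPUSD4) lay between -0.14 and 0.09.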

How the data were processed

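Expression was profiled on 6 Affymetrix Human Gene 1.0 ST arrays of A375 cells, 3 per group. The authors made the deposited log2 values by RMA with global scaling (background correction, normalization between arrays, 1 value per probe set), with the version not given in the sources used here. The sources differ on the RNA kit (miRNeasy Mini, RNeasy Fibrous Tissue, or TRIzol with RNeasy) and on the labeling kit, which could affect how short RNAs are recovered. Of 28829 probe sets, 19291 carry 1 symbol, 1735 several and 7803 were not named, and platform annotation gave 18372 genes with the brightest probe set kept. Of the 61 snoRNAs, SNORA10 and SNORA15 had several probe sets. Symbols were matched by gene ID (19260 matched, 0 changed).

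The groups were compared in R 4.3.3 by limma 3.58.1, whose moderated test (lmFit, then eBayes) was two-sided, taken as siFAH minus control siRNA, on 4 residual and 6.52 prior degrees of freedom, with Benjamini-Hochberg adjustment over all genes and a threshold of 0.05. The labels number the replicates, and the authors' methods describe them as biological. No read depth applies to arrays. The precision is set by their number, and with 3 per group the smallest exact permutation p is 0.1. Alternatives were quantile, median and cyclic loess scaling, leaving out genes under a mean signal of 5.46, eBayes with trend and robust, array weights, SAM with all 20 arrangements of the labels, the methods' t-test, averaging over all probe sets of a gene, the replicate block, and leaving out each array. The authors name SAM for the arrays, with a fold limit that was not applied here, and the t-test in their general statistics. Other software was Python 3.11.15 with pandas 2.3.3, numpy 2.4.6 and matplotlib 3.10.9.

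A host was taken as the only protein-coding or long noncoding RefSeq gene (GRCh38.p14) whose span contains the snoRNA. Strand was not used, since the gene table used here gives none, although the rule had asked for the same strand. Promoters are from the RefSeq table of the same build. Sequences of the snoRNAs were not used here. The members, lists, bands and the rule for named genes were chosen with earlier results of these data known. The rule named FAH, the 12 largest called changes with no overlap, the 4 most negative, the 4 brightest and the 4 dimmest snoRNAs, every member called lower, SNORA73A and SNORA73B, the hosts of those, and all genes of the lists. Other snoRNAs and hosts named singly were chosen after their values were seen.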

Additional observations from a re-analysis of the deposited data

Results flagged for a closer look

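Probe sets that carry several symbols were left out of the comparison, and 26 of them name a box H/ACA snoRNA, with 18 such symbols found only there. They drew attention as a signal in data outside the main comparison: 20 of the 26 were higher on every siFAH array than on every control array, 1 was lower without overlap, and 5 overlapped, where 13.4% and 18.6% of all genes were higher and lower without overlap. With probe sets of identical values counted once, 19 of 25 were higher. Their median difference, siFAH minus control siRNA, was 0.47 on the log2 scale (range -0.27 to 0.99), with no test. The probe sets of SNORA59A and SNORA59B, of which 2 hold identical values, had 7.76, 8.24 and 8.23 in siFAH cells and 7.30, 7.07 and 6.89 in control cells. The probe set shared by SNORA73A, which acts in cleavage of the ribosomal precursor, and its host SNHG3 had 11.31, 11.63 and 11.60 in siFAH cells and 10.98, 10.86 and 10.84 in control cells, a difference of 0.62, and SNORA73B was not analysed here. The probe set of SNORA36A with DKC1 and MIR664B differed by 0.95, and that of SNORA1 with TAF1D by 0.85. The 1 that was lower without overlap carries RPL10, SNORA70 and DNASE1L1 (-0.27). A probe set that names the same genes and NDUFS5 was higher (0.32), as were 2 probe sets of SNORA70 with RPL10 alone (0.62 and 0.56). For SNORA33, the probe set shared with RPS12 differed by 0.41 and that shared with SNORD101 by -0.21. The probe set of SNORA60 with SNHG11 differed by -0.045. Which of the named transcripts such a probe set reads was not tested.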

How the results depend on the processing

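Of 144 alternatives to the counts and medians, 96 stayed within the limit set for them and 48 moved. The limit was wide: 28 box H/ACA increases without siFAH replicate 2, against 40 as reported, still lay within it. The count of called increases among the 61 box H/ACA snoRNAs was 40 as reported and 44 with SAM, the authors' method for the arrays. It was between 35 and 46 under the other settings, apart from the t-test, and 28 to 45 when 1 array was left out. The t-test of the authors' general statistics called 0 after Benjamini-Hochberg adjustment. That t-test called 14 of all genes, 0 box C/D snoRNAs higher, 0 box H/ACA snoRNAs lower, 0 hosts and 0 core or assembly proteins. The count of called decreases (1) was 2 with quantile normalization, cyclic loess, trend and robust, and SAM, 0 with dim genes left out, and 0 to 2 when 1 array was left out. Over all genes 1811 were called as reported, 2913 with array weights and 657 to 1845 when 1 array was left out. Box C/D increases (61) ranged from 35 to 70 when 1 array was left out, and their median (0.41) was 0.63 without dim genes. Called hosts (5) were 2 with quantile normalization and with cyclic loess, 9 without dim genes, 10 with trend and robust and with SAM, 8 with array weights, and 1 to 7 when 1 array was left out. The host median (-0.10) was -0.045 with quantile normalization, -0.016 with cyclic loess and -0.11 to -0.057 when 1 array was left out. Called core and assembly proteins (3) were 6 without dim genes, 6 with trend and robust, 5 with array weights, and 0 to 2 when 1 array was left out. The causes were not tested.

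With the replicate number as a replicate block, 761 of all genes were called, with 35 box H/ACA increases, all among the 40, 1 host and 1 core or assembly protein. Deviations from the group means had correlations of -0.16, -0.09 and -0.27 between same-numbered arrays. Between differently numbered arrays they ran from -0.09 to 0.24. With 3 arrays per group, these values cannot settle whether the numbers pair the arrays.

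Among genes named by the rule, 37 of 1073 alternatives turned the sign, for 17 genes whose reported change was between -0.11 and 0.04, none of them called. Genes named outside the rule, such as SNORA80B, are not in this tally. With array weights SNORA70F, PPP2R5A and PUS7 were at 0.033, 0.040 and 0.055. With quantile normalization POR, NAP1L4, RPL27A and PUS7 were at 0.022, 0.029, 0.032 and 0.035, and with cyclic loess POR, NAP1L4, PPP2R5A, RPL27A, SHQ1, NOLC1 and PUS7 at 0.019, 0.039, 0.00053, 0.048, 0.0054, 0.0090 and 0.039. When 1 array was left out the ranges were, for SNORA70F -0.084 to 0.041, SNORA58 -0.15 to 0.012, POR -0.026 to 0.0033, MBD2 -0.012 to 0.085, KANSL2 -0.21 to 0.0019, PPP2R5A -0.15 to 0.050, RPL27A -0.13 to 0.042, COBLL1 -0.092 to 0.054, PUS3 -0.11 to 0.087, PUS7 -0.10 to 0.0079, PUS7L -0.043 to 0.070, PUS10 -0.14 to 0.00090, RPUSD2 -0.13 to 0.017 and RPUSD4 -0.028 to 0.082.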
